A study of Mus musculus with 9 samples.

Results

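The genes described here encode the machinery of the presynaptic terminal: the synapsins and membrane proteins of the synaptic vesicle, the SNARE proteins that fuse it, the calcium sensors that trigger fusion, the Rab3 GTPases, the active zone scaffold and priming factors, and the proteins that retrieve vesicle membrane. They were taken as a list of 39 named mouse genes, and all 39 were found by symbol among the 37224 genes of the deposited count table. The study converted fibroblasts directly into cells meant to resemble forebrain GABAergic interneurons and compared their RNA with that of the starting fibroblasts and of cortical interneurons. The iGABA libraries came from P0 mouse embryonic fibroblasts sampled at day 14 of reprogramming, after 2 days in fibroblast medium and then neuronal medium, with the cells sorted for GFP. The GAD67 libraries came from primary cortical interneurons of embryonic stage E18.5, sorted for the GFP reporter of GAD67, the enzyme that makes GABA. The MEF libraries came from P0 primary embryonic fibroblasts of stage E13.5, which were trypsinised and not sorted. Their growth notes also mention neuronal medium, and whether RNA was taken before it is not stated. Each group had 3 libraries, and all animals were C57BL/6. The labels name neither the reprogramming factors nor the promoter behind GFP in the iGABA cells. Because the labels do not say that libraries of a group came from separate cultures or animals, the p-values below measure the spread between libraries, which may be technical.

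As background, a synaptic vesicle is filled with transmitter, tethered to the actin and active zone matrix, primed into a partly zipped SNARE complex and fused when calcium binds a synaptotagmin. Synapsins hold vesicles in reserve, Rab3 and the RIM proteins bring them to the release site, and Munc13 proteins open syntaxin for SNARE assembly. After fusion, amphiphysin, dynamin and synaptojanin act in the recovery of the membrane by clathrin-mediated endocytosis. In forebrain interneurons, fast release of GABA depends on this set of proteins, and most of its genes are weakly transcribed outside neurons and neuroendocrine cells.

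Library totals ran between 27501521 and 38975523 counts, so that 3 counts corresponded to between 0.0717 and 0.11 CPM (counts per 1000000 counts of the library) after scaling for RNA composition with TMM. The summed CPM of 6 neuronal markers was between 709 and 720 in the iGABA libraries, between 7552 and 8021 in the GAD67 libraries and between 68.8 and 72.6 in the MEF libraries, and that of 6 GABAergic interneuron markers was between 613 and 625 in iGABA, between 3835 and 3981 in GAD67 and between 6.65 and 7.7 in MEF. All 6 neuronal and all 6 GABAergic markers had a mean of at least 1 CPM in the iGABA libraries and in the GAD67 libraries. The GABAergic markers were uneven, with Gad1 the highest in iGABA at 405 CPM, against 745 CPM in GAD67. Gad2 averaged 9.45 CPM in iGABA and 514 CPM in GAD67, and Slc32a1 2.83 CPM in iGABA and 186 CPM in GAD67. Dlx1, Dlx2 and Lhx6 averaged 77.4, 47.0 and 75.5 CPM in iGABA and 1482, 533 and 464 CPM in GAD67. All 8 fibroblast markers were above that level in the iGABA libraries and in MEF, with sums between 459 and 722 CPM in iGABA, between 130 and 138 CPM in GAD67 and between 78735 and 87381 CPM in MEF. For 6 peripheral neuron and neuroendocrine markers the sums were between 347 and 361 CPM in iGABA, between 90.7 and 109 CPM in GAD67 and between 13.8 and 16.6 CPM in MEF. The sums of 5 Schwann and oligodendrocyte lineage markers lay between 396 and 408 CPM in iGABA, between 39.4 and 42.3 CPM in GAD67 and between 27.6 and 30.0 CPM in MEF. The part that these other cell types or states play in the presynaptic levels below was not tested.

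The 250 bases upstream of the RefSeq start (GRCm38.p6) are shown for 5 members whose levels differed in contrasting ways between the groups. Syn1 rose in iGABA and stayed below GAD67, Syp and Syt2 exceeded GAD67, Rims1 fell below MEF, and Amph stayed far below GAD67. Capitals mark the matches, on either strand, to the RE1 consensus (with up to 3 mismatches among its 18 fixed letters), the element bound by the neuronal gene repressor REST, to the cyclic AMP response element (TGACGTCA), and to the GC box (GGGCGG). Each is written 5′ to 3′ in the direction of transcription, and they lie at chrX:20920919-20921168 on the minus strand (Syn1), chrX:7638330-7638579 on the plus strand (Syp), chr1:134709050-134709299 on the plus strand (Syt2), chr1:22806159-22806408 on the minus strand (Rims1) and chr13:18948101-18948350 on the plus strand (Amph).
Syn1: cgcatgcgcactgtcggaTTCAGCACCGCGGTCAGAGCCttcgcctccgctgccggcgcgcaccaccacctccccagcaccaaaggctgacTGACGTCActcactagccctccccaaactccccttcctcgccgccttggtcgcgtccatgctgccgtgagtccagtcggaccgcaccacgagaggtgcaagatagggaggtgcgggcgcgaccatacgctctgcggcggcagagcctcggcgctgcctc
Syp: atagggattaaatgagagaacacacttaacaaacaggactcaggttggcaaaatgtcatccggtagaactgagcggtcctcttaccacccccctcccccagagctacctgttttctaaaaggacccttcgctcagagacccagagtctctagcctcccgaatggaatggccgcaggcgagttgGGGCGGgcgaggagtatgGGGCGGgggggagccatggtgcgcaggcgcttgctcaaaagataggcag
Syt2: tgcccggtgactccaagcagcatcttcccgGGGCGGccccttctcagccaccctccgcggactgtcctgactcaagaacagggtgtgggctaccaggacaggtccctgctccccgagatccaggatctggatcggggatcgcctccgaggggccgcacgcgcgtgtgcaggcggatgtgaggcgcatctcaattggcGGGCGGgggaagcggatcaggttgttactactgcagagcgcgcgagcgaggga
Rims1: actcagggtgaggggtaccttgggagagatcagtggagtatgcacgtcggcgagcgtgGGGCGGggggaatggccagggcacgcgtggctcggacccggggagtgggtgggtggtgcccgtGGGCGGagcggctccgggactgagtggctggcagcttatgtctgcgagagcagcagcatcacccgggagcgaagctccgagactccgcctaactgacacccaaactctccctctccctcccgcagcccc
Amph: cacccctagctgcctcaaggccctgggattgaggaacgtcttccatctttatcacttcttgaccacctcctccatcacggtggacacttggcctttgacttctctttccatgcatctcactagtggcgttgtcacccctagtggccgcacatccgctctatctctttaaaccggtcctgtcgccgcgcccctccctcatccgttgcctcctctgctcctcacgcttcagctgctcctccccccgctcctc
RefSeq gave an upstream sequence for 30 of the 39 members. The RefSeq start used lay 68793 bases from the start in the count table for Cplx2 and 2565 bases from it for Syt11. In Syn1 the RE1 match ran between bases 232 and 212 before the start and the cyclic AMP response element between bases 159 and 152. An RE1 match was found in 1 of the 30 members (3.33%) and in 25 of all 32851 promoters (0.0761%), and a cyclic AMP response element in 1 of 30 (3.33%) and in 1.55% of all promoters. GC boxes stood in 19 of the 30 members (63.3%), against 32.7% of all promoters. The TATA box (TATAAA) stood in 2 of 30 (6.67%), against 12.4%. The median GC content was 61.0% for the members and 52.4% for all promoters. A match describes the letters in these windows and shows no binding.

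Presynaptic transcripts were far more abundant in iGABA cells than in fibroblasts. Summed over the 39 members, the level per kilobase of exon (RPKM from the TMM-scaled counts) was 856 ± 17.3 in iGABA, 730 ± 46.6 in GAD67 and 96.4 ± 5.11 in MEF (SD, n = 3 each). Without Cplx2 the sums were 644 ± 15.3 in iGABA, 675 ± 36.7 in GAD67 and 93.1 ± 4.77 in MEF, so the order of iGABA and GAD67 rests on that gene. In bulk RNA, fewer cells of a type and less RNA per cell cannot be told apart. With edgeR's quasi-likelihood test and an adjusted p under 0.05, 34 members rose in iGABA over MEF, where 42.1% of the 18085 tested genes did so, and 4 fell (Sv2c, Doc2b, Rims1 and Dnm3), where 39.7% of all genes did. Sv2b did not pass, and 81.9% of all genes passed in either direction. All 39 members passed the filter on low counts. By at least 2-fold, 32 members rose and 4 fell in iGABA over MEF, against 23.9% and 23.8% of all genes, and the median log2 fold change was 3.36 over the members and 0.05 over all tested genes.

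Set against cortical interneurons, the members were found on both sides, and drops of at least 2-fold were more frequent than among all genes. In iGABA over GAD67, 14 members were higher (35.9%) and 19 lower (48.7%), where 41.3% and 39.3% of all genes were, where 80.6% of all genes passed either way; 6 did not pass (Sv2a, Sv2b, Sv2c, Stx1a, Napb and Rab3b). At least 2-fold, 8 of the 39 members were higher and 16 of the 39 lower, against 26.6% and 20.0% of all genes. By that measure the lower share was larger among the members than among all genes, and the higher share smaller. The median log2 fold change was -0.19 over the members and 0.02 over all genes. For 13 of the members (33.3%) the 95% interval of the difference lay within 2-fold, as it did for 39.2% of all genes. In GAD67 over MEF, 34 members were higher and 2 lower (Sv2c and Dnm1), where 43.1% and 43.8% of all genes were and 86.9% passed either way, and the median was 4.06 over the members and 0.00 over all genes. The comparisons share libraries, so the joint counts that follow describe each member and are no independent evidence. Above MEF in both iGABA and GAD67 stood 32 members: 16 of them were lower in iGABA than in GAD67, 12 were higher, and 4 did not pass between iGABA and GAD67. No share of all genes with the same joint calls is given here, so these counts show no excess.

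**Figure D1:**
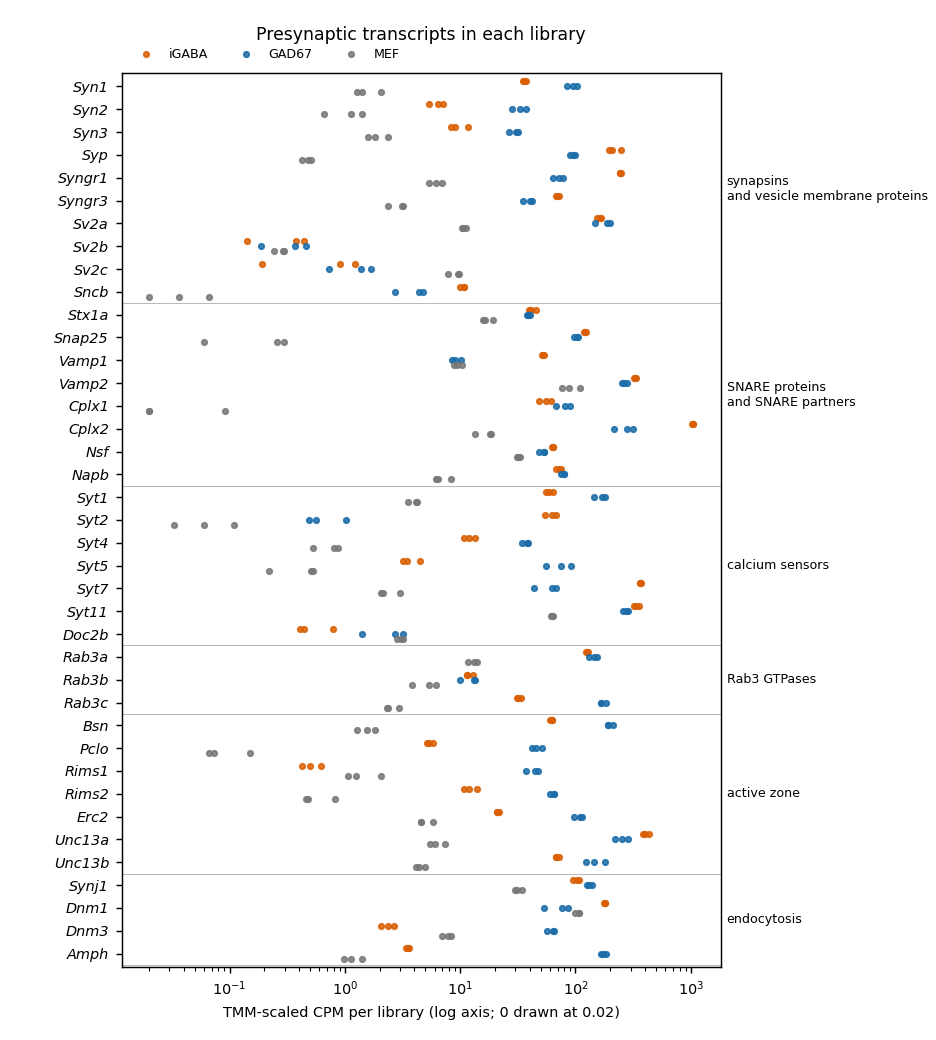
TMM-scaled CPM (log axis) of the 39 members in every library, a row for each gene, grouped by role, with the points of iGABA drawn above those of GAD67 and MEF; each point is a library, and a library with no count is drawn at 0.02 CPM. Cplx2, at 1029 to 1055 CPM in iGABA, is the highest member, and Rims1 and Dnm3 have their iGABA points below their MEF points.

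Of the 10 synapsins and vesicle membrane proteins, 8 rose in iGABA over MEF, Sv2c fell and Sv2b did not pass. Against GAD67, all 3 synapsins were lower in iGABA, Syp, Syngr1, Syngr3 and Sncb were higher, and Sv2a, Sv2b and Sv2c did not pass. Syn1 (ENSMUSG00000037217, mm10 chromosome X, 20860511 to 20921004), which tethers vesicles in the reserve pool and whose upstream sequence is shown above, had 36.1, 37.4 and 35.0 CPM in iGABA, 94.4, 83.8 and 103 CPM in GAD67 and 1.28, 2.04 and 1.42 CPM in MEF. The iGABA libraries lay between the other two groups with no overlap. The log2 fold change was 4.51 ± 0.13 over MEF (SE, edgeR adjusted p = 2.93e-12) and -1.37 ± 0.09 over GAD67 (adjusted p = 9.51e-09). Syn2, the second synapsin of most terminals, had 6.38, 5.35 and 7.13 CPM in iGABA, 33.0, 37.3 and 28.0 CPM in GAD67 and 0.659, 1.41 and 1.12 CPM in MEF, which placed iGABA at 19.1% of the GAD67 level. Syn3, the synapsin known from developing neurons, averaged 9.76 ± 1.8 CPM in iGABA, 29.6 ± 2.62 CPM in GAD67 and 1.92 ± 0.396 CPM in MEF (SD, n = 3 each). Its low MEF level is uncertain, since 14.1% of its exon bases lie opposite exons of Timp3, which had a mean of 6123 counts in iGABA, 140 in GAD67 and 26849 in MEF, and the strand setting of the counting is not given in the sources used here.

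Synaptophysin, both synaptogyrins and beta-synuclein exceeded the interneuron level. Syp (ENSMUSG00000031144, mm10 chromosome X, 7638471 to 7653256), which encodes the most abundant tetraspan protein of synaptic vesicles, had 209, 247 and 196 CPM in iGABA, 95.3, 98.7 and 90.2 CPM in GAD67 and 0.513, 0.428 and 0.483 CPM in MEF. All iGABA libraries lay above all GAD67 libraries, and MEF was far below both, with 13 to 16 counts a library. For Syp the log2 fold change was 8.83 ± 0.14 over MEF (SE, edgeR adjusted p = 1.19e-14) and 1.20 ± 0.08 over GAD67 (adjusted p = 7.9e-09). Its exons share 16.8% of their bases with Gm14703 on the opposite strand, which had a mean of 72.3 counts in iGABA, 30.0 in GAD67 and 5.3 in MEF. Syngr1, a synaptogyrin that acts with synaptophysin in vesicle trafficking, had 241, 241 and 246 CPM in iGABA, 72.2, 77.4 and 64.0 CPM in GAD67 and 5.38, 6.91 and 6.13 CPM in MEF. Its iGABA level was 3.41-fold that of GAD67 (edgeR adjusted p = 1.43e-10). Syngr3, which is found on vesicles of many neurons, averaged 69.0 ± 2.12 CPM in iGABA, 39.3 ± 3.72 CPM in GAD67 and 2.9 ± 0.444 CPM in MEF. Sncb, encoding beta-synuclein, averaged 10.5 ± 0.509 CPM in iGABA and 3.97 ± 1.11 CPM in GAD67, and had 3 counts over the MEF libraries, so that the ratio of iGABA to MEF was 317 with a 95% counting interval of 108 to 1541. Its fitted fold change over MEF, 287 with all libraries, was 522 without MEF replicate 2 and 189 without MEF replicate 3. These intervals cover counting error only.

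The SV2 proteins, glycoproteins that bind synaptotagmin, were divided by paralog. Sv2a, the form present at nearly all synapses, had 163, 168 and 153 CPM in iGABA, 186, 201 and 149 CPM in GAD67 and 11.2, 10.4 and 10.5 CPM in MEF. The iGABA and GAD67 ranges overlapped, and both were far above MEF. The log2 fold change of Sv2a over MEF was 3.91 ± 0.11 (SE, edgeR adjusted p = 1.64e-12), while its difference from GAD67 had an interval of -0.34 to 0.05 (adjusted p = 0.15). Without GAD67 replicate 9, that difference was -0.27 and passed (edgeR adjusted p = 0.000457). Sv2c, a paralog with restricted expression in the brain, ran the other way, with 0.915, 0.191 and 1.22 CPM in iGABA, 1.38, 1.67 and 0.734 CPM in GAD67 and 9.63, 9.81 and 7.88 CPM in MEF. It was 12.1-fold lower in iGABA than in MEF (edgeR adjusted p = 1.42e-06) and 7.15-fold lower in GAD67 than in MEF (adjusted p = 5.62e-06). Between iGABA and GAD67 its interval was -1.73 to 0.21 on the log2 scale, and the call passed without iGABA replicate 6 (-1.20, edgeR adjusted p = 0.0392) or without GAD67 replicate 9 (-1.04, adjusted p = 0.0262). Sv2b was between 0.143 and 0.46 CPM in every library, on 6 to 18 counts each, and no difference was detectable at this depth.

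All 8 SNARE proteins and SNARE partners rose over MEF. Of the 8, 6 differed from GAD67 by less than 2-fold over their whole 95% interval. That share, 75.0%, was the largest of any role, against 39.2% of all genes, but other measures ranked the roles differently. By median log2 difference from GAD67, this role stood at 0.27, the synapsins and vesicle membrane proteins at -0.12 and the Rab3 GTPases at -0.19. The SNARE sum was 380 RPKM in iGABA and 209 RPKM in GAD67, against 139 and 133 RPKM for the calcium sensors. Snap25 (ENSMUSG00000027273, mm10 chromosome 2, 136713453 to 136782428), the neuronal plasma membrane SNARE, had 123, 122 and 118 CPM in iGABA, 106, 97.8 and 103 CPM in GAD67 and 0.256, 0.296 and 0.0604 CPM in MEF. The iGABA libraries were slightly above the GAD67 libraries without overlap. The log2 fold change was 9.22 ± 0.15 over MEF (SE, edgeR adjusted p = 1.84e-14) and 0.24 ± 0.07 over GAD67 (adjusted p = 0.00972). Vamp2, the vesicle SNARE of fast release, had 320, 332 and 326 CPM in iGABA, 265, 279 and 253 CPM in GAD67 and 110, 76.9 and 88.5 CPM in MEF. It was already abundant in MEF, and its fold change over MEF was 3.56. Stx1a, the syntaxin that Munc13 opens, averaged 42.1 ± 2.84 CPM in iGABA, 39.3 ± 1.26 CPM in GAD67 and 17.2 ± 1.84 CPM in MEF (SD, n = 3 each), with an interval against GAD67 of -0.06 to 0.27 on the log2 scale. Scaled by library size instead of TMM, Stx1a passed between iGABA and GAD67 (0.30, edgeR adjusted p = 0.00431). Nsf, the ATPase that takes used SNARE complexes apart, averaged 63.6 ± 0.532 CPM in iGABA, 51.7 ± 2.77 CPM in GAD67 and 32.0 ± 1.14 CPM in MEF, and its 1.99-fold rise over MEF was the smallest of the role. Napb, the neuronal adaptor of Nsf, averaged 71.6 ± 4.24 CPM in iGABA, 77.7 ± 2.95 CPM in GAD67 and 6.99 ± 1.21 CPM in MEF, with an interval against GAD67 of -0.29 to 0.06.

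Vamp1 and Cplx2 were the exceptions, both more than 2-fold higher in iGABA than in GAD67. Vamp1, the vesicle SNARE prevalent in spinal cord and brainstem, had 51.6, 53.4 and 51.8 CPM in iGABA, 9.07, 10.2 and 8.53 CPM in GAD67 and 10.4, 8.88 and 9.42 CPM in MEF. GAD67 and MEF overlapped (log2 difference -0.04, interval -0.24 to 0.15), and iGABA stood above both. Its log2 fold change was 2.49 ± 0.08 over GAD67 (SE, edgeR adjusted p = 1.24e-11) and 2.45 ± 0.09 over MEF (adjusted p = 1.64e-11). Cplx2 (ENSMUSG00000025867, mm10 chromosome 13, 54371349 to 54383917), a complexin that clamps and activates the SNARE complex, had 1029, 1055 and 1045 CPM in iGABA, 277, 314 and 217 CPM in GAD67 and a mean of 16.7 ± 2.75 CPM in MEF (SD, n = 3). It was 62.5-fold above MEF (edgeR adjusted p = 9.58e-13) and 3.87-fold above GAD67 (adjusted p = 8.85e-09). Per exon length it was the highest of the 39 members in iGABA, at 212 ± 2.72 RPKM, against 85.6 ± 1.61 RPKM for Vamp2, the next. In GAD67, Cplx2 stood at 54.6 ± 9.88 RPKM, behind Vamp2 and Rab3a. Cplx1, the complexin prominent in inhibitory neurons of the mature brain, had 55.1, 47.8 and 61.6 CPM in iGABA, 81.8, 88.8 and 67.7 CPM in GAD67, and 3 counts in MEF, all of them in replicate 3. The ratio of iGABA to MEF was 1643, with a 95% counting interval of 562 to 7968, and iGABA reached 69.0% of the GAD67 level (edgeR adjusted p = 0.000871). Among the complexin pair, Cplx1 therefore made up 10.6% ± 1.23 of the RPKM in iGABA and 40.0% ± 1.15 in GAD67.

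The 6 synaptotagmins and Doc2b are grouped here as calcium sensors and their relatives. Of these 7 genes, the 6 synaptotagmins rose over MEF and Doc2b fell, and against GAD67 Syt2, Syt7 and Syt11 were higher and Syt1, Syt4, Syt5 and Doc2b lower. Syt1 (ENSMUSG00000035864, mm10 chromosome 10, 108497650 to 109010982), the fast release sensor of forebrain synapses, had 58.4, 63.3 and 55.8 CPM in iGABA, 170, 179 and 146 CPM in GAD67 and 4.17, 4.21 and 3.56 CPM in MEF. The iGABA libraries reached 35.8% of GAD67 (log2 fold change -1.48 ± 0.08 SE, edgeR adjusted p = 1.46e-09). Syt2 (ENSMUSG00000026452, mm10 chromosome 1, 134709300 to 134753149), the fast sensor of brainstem, spinal and some fast-spiking synapses, had 62.0, 54.3 and 67.7 CPM in iGABA, 0.485, 1.03 and 0.565 CPM in GAD67 and 0.11, 0.0329 and 0.0604 CPM in MEF. The iGABA libraries stood far above the libraries of both other groups. Its log2 fold change was 6.46 ± 0.18 over GAD67 (SE, edgeR adjusted p = 1.89e-12) and 9.78 ± 0.26 over MEF (adjusted p = 1.17e-12), and in no other member was the excess over GAD67 as great. Syt7 (ENSMUSG00000024743, mm10 chromosome 19, 10389090 to 10453181), a slow high-affinity sensor for asynchronous release and facilitation that also acts in dense-core granules and lysosomes, had 360, 372 and 360 CPM in iGABA, 62.4, 67.8 and 43.5 CPM in GAD67 and 3.0, 2.04 and 2.14 CPM in MEF. It was 6.28-fold above GAD67 (edgeR adjusted p = 6.67e-10) and 153-fold above MEF (adjusted p = 8.24e-13). Chgb, a granule protein of neurons and endocrine cells and a marker on the neuroendocrine list, averaged 218 CPM in iGABA, 48.7 CPM in GAD67 and 0.544 CPM in MEF, and its part in the level of Syt7 was not tested.

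Syt5 stood at the opposite end of the family. Syt5 (ENSMUSG00000004961, mm10 chromosome 7, 4539768 to 4546567), a synaptotagmin of vesicles and dense-core granules, had 3.44, 4.51 and 3.19 CPM in iGABA, 74.4, 91.3 and 55.3 CPM in GAD67 and 0.22, 0.526 and 0.513 CPM in MEF. Its iGABA libraries were above MEF and at 5.08% of GAD67, without overlap. The log2 fold change over GAD67 was -4.30 ± 0.19 (SE, edgeR adjusted p = 2.26e-10). Syt4, a synaptotagmin of secretory granules and of postsynaptic vesicles, averaged 12.0 ± 1.35 CPM in iGABA, 37.3 ± 2.23 CPM in GAD67 and 0.736 ± 0.185 CPM in MEF. Syt11, a relative that binds no calcium and acts in endocytosis, averaged 339 ± 17.2 CPM in iGABA, 271 ± 13.3 CPM in GAD67 and 62.9 ± 1.02 CPM in MEF, so it was expressed at appreciable levels in fibroblasts too. Doc2b, a high-affinity sensor of spontaneous release, had 0.445, 0.406 and 0.782 CPM in iGABA, 2.71, 3.21 and 1.41 CPM in GAD67 and 3.08, 3.19 and 2.84 CPM in MEF. Thus iGABA was the lowest group, by a log2 change of -2.51 ± 0.33 over MEF (SE, edgeR adjusted p = 9.94e-06) and -2.20 ± 0.33 over GAD67 (adjusted p = 3.53e-05), while GAD67 and MEF overlapped.

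Among the 3 Rab3 GTPases, which dock vesicles through RIM, all rose over MEF and none exceeded GAD67. Rab3a, the most abundant form in brain, had 124, 128 and 126 CPM in iGABA, 145, 155 and 131 CPM in GAD67 and 11.6, 14.0 and 13.2 CPM in MEF. It was 9.75-fold above MEF (edgeR adjusted p = 6.14e-13). Its difference from GAD67 was -0.19 ± 0.07 on the log2 scale (SE, edgeR adjusted p = 0.0241), but was 0.01 (adjusted p = 0.948) when only library size was scaled, and was lost on leaving out iGABA replicate 4, iGABA replicate 6, GAD67 replicate 7 or GAD67 replicate 8 (adjusted p between 0.0687 and 0.0945). Rab3c, a vesicle-bound paralog of neurons, had 33.8, 31.7 and 31.4 CPM in iGABA, 167, 166 and 183 CPM in GAD67 and 2.38, 2.34 and 2.96 CPM in MEF. It was 5.32-fold lower in iGABA than in GAD67 (edgeR adjusted p = 2.3e-12), with tight libraries in both. Rab3b, which is prominent in inhibitory terminals and endocrine cells, averaged 11.9 ± 0.947 CPM in iGABA, 12.2 ± 1.95 CPM in GAD67 and 5.11 ± 1.21 CPM in MEF, with an interval against GAD67 of -0.37 to 0.31 on the log2 scale.

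**Figure D2:**
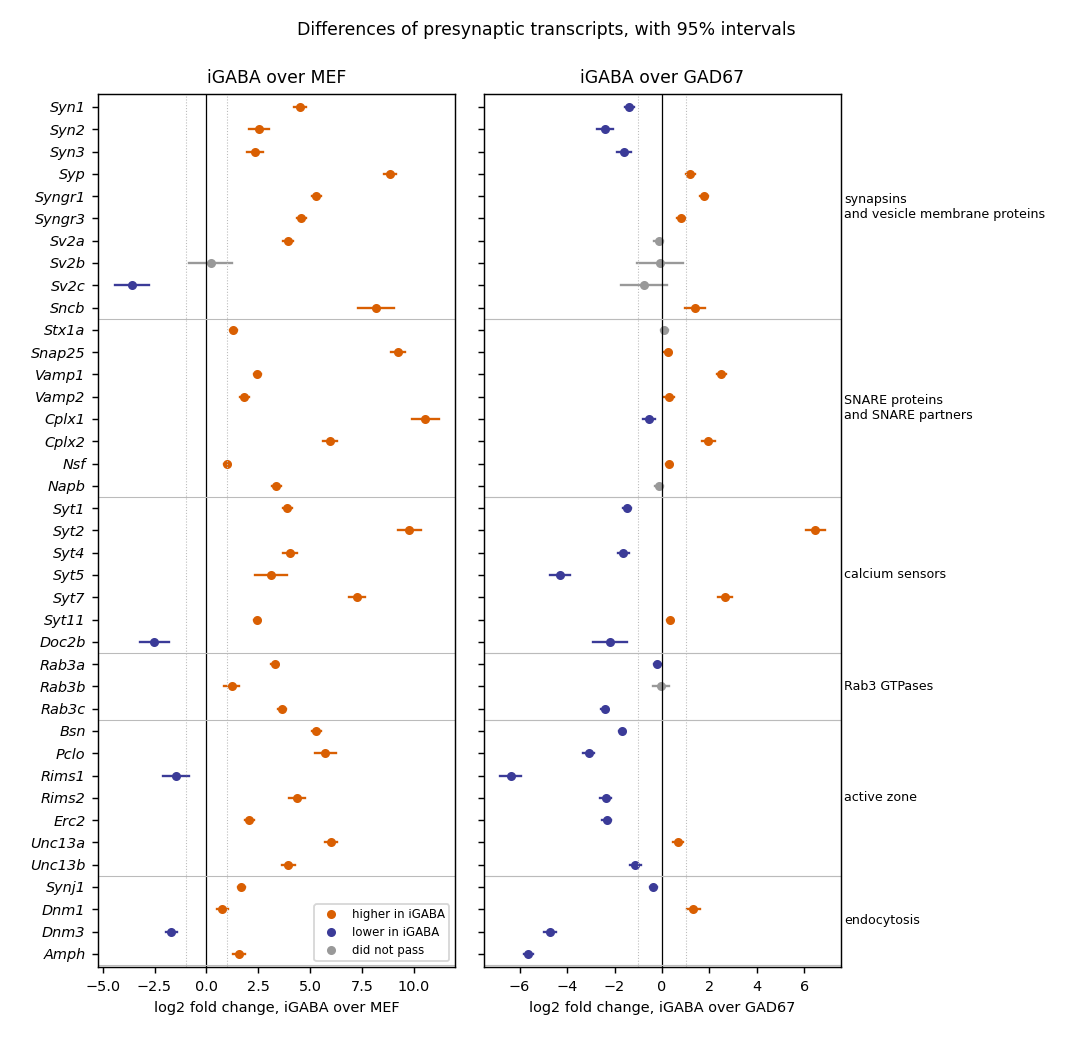
Log2 fold change of each member in iGABA over MEF (left) and iGABA over GAD67 (right), with 95% intervals from the edgeR fit; orange is higher in iGABA, blue lower and grey did not pass an adjusted p of 0.05, and dotted lines mark 2-fold. Nearly all members lie to the right of 0 against MEF, and 6 of 7 active zone genes lie to the left of 0 against GAD67; the values of Sncb and Cplx1 over MEF rest on 3 MEF counts each.

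The active zone was the role in which iGABA cells fell short of interneurons in the greatest share of its genes. Of its 7 genes, 6 rose over MEF and 6 were at least 2-fold lower than in GAD67, and Unc13a was the exception. Bsn (ENSMUSG00000032589, mm10 chromosome 9, 108096023 to 108190384), encoding the scaffold bassoon, had 60.0, 62.1 and 62.3 CPM in iGABA, 210, 190 and 192 CPM in GAD67 and 1.57, 1.84 and 1.27 CPM in MEF. iGABA libraries lay between the other groups, at 31.1% of GAD67 (log2 -1.68 ± 0.07 SE, edgeR adjusted p = 5.93e-11) and 39.4-fold above MEF (adjusted p = 5.67e-14). Pclo, the related scaffold piccolo, had 5.34, 5.8 and 5.13 CPM in iGABA, 51.1, 45.4 and 41.9 CPM in GAD67 and 0.0732, 0.0658 and 0.151 CPM in MEF, and was 8.48-fold lower in iGABA than in GAD67. Rims2, a RIM that links Rab3 to calcium channels, had 12.0, 13.9 and 10.9 CPM in iGABA, 65.2, 65.0 and 60.0 CPM in GAD67 and 0.476, 0.461 and 0.815 CPM in MEF. Erc2, encoding the CAST scaffold, had 21.0, 21.5 and 20.8 CPM in iGABA, 109, 113 and 97.0 CPM in GAD67 and 4.54, 4.54 and 5.86 CPM in MEF. In iGABA, Rims2 stood at 19.4% of its GAD67 level (edgeR adjusted p = 1.45e-10) and Erc2 at 19.8% (adjusted p = 2e-11).

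Rims1 was the member in which the shortfall was greatest. Rims1 (ENSMUSG00000041670, mm10 chromosome 1, 22286251 to 22805994), the founding RIM scaffold, had 0.421, 0.621 and 0.5 CPM in iGABA, 44.5, 47.5 and 37.3 CPM in GAD67 and 1.06, 2.04 and 1.24 CPM in MEF. The iGABA libraries were below the MEF libraries without overlap, though both were under about 2 CPM. Rims1 had a log2 fold change of -6.37 ± 0.20 over GAD67 (SE, edgeR adjusted p = 7.34e-12), -1.49 ± 0.29 for iGABA over MEF (adjusted p = 0.000351) and 4.89 ± 0.18 for GAD67 over MEF (adjusted p = 1.75e-11). Of Rims1 and Rims2 together, Rims1 made up 2.99% ± 0.419 of the RPKM in iGABA, 33.2% ± 1.8 in GAD67 and 63.8% ± 12.0 in MEF. In MEF their total was only 0.327 RPKM. Rims3 and Rims4, further RIM genes outside the member list, did not pass between iGABA and GAD67 (edgeR adjusted p = 0.616 and 0.724). Rims3 averaged 28.0 ± 0.348 CPM in iGABA, 25.8 ± 9.78 CPM in GAD67 and 0.354 ± 0.0475 CPM in MEF. Rims4 averaged 26.9 ± 2.07 CPM in iGABA, 25.9 ± 5.43 CPM in GAD67 and 0.0762 ± 0.0494 CPM in MEF.

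The Munc13 genes both rose over MEF and lay on opposite sides of GAD67. Unc13a (ENSMUSG00000034799, mm10 chromosome 8, 71624417 to 71671757), the main vesicle priming factor of forebrain synapses, had 397, 432 and 385 CPM in iGABA, 253, 220 and 288 CPM in GAD67 and 7.36, 6.02 and 5.53 CPM in MEF. It was 64.5-fold above MEF (edgeR adjusted p = 1.61e-13) and 1.60-fold above GAD67 (adjusted p = 2.41e-05). Exons of Colgalt1 lie opposite 3.91% of its exon bases. Unc13b, its widely expressed paralog, had 68.1, 71.8 and 67.1 CPM in iGABA, 146, 123 and 180 CPM in GAD67 and 4.98, 4.38 and 4.14 CPM in MEF. It was 15.4-fold above MEF (edgeR adjusted p = 2.2e-11) and reached 46.2% of GAD67 (adjusted p = 6.72e-07), so that Unc13a made up 86.2% ± 0.286 of the pair per length in iGABA, against 64.6% ± 1.35 in GAD67 and 59.9% ± 1.25 in MEF. Summed per length, the 7 active zone genes gave 47.3 ± 2.52 RPKM in iGABA, 82.2 ± 2.73 RPKM in GAD67 and 2.08 ± 0.0487 RPKM in MEF, and Unc13a alone contributed 32.1 ± 1.94 RPKM of the iGABA sum.

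The 4 endocytosis genes were at the lowest ratio to GAD67 by their median, with a log2 difference of -2.54. Amph (ENSMUSG00000021314, mm10 chromosome 13, 18948371 to 19150913), the adaptor that brings dynamin to clathrin-coated pits, had 3.54, 3.42 and 3.6 CPM in iGABA, 172, 167 and 183 CPM in GAD67 and 1.14, 0.987 and 1.42 CPM in MEF. The iGABA libraries were close to the MEF level and far from GAD67. The log2 fold change was -5.63 ± 0.08 over GAD67 (SE, edgeR adjusted p = 1.12e-14), or 49.5-fold lower, and 1.56 ± 0.13 over MEF (adjusted p = 9.72e-08). Dnm3 (ENSMUSG00000040265, mm10 chromosome 1, 161982453 to 162478034), a neuronal dynamin, had 2.67, 2.05 and 2.35 CPM in iGABA, 64.3, 64.5 and 56.8 CPM in GAD67 and 8.31, 7.77 and 7.01 CPM in MEF. iGABA was thus the lowest group, 3.26-fold under MEF (edgeR adjusted p = 2.09e-08) and 26.2-fold under GAD67 (adjusted p = 3.54e-13). Exons of Gm10176 and 2810442N19Rik lie opposite 2.37% and 0.281% of the Dnm3 exon bases. Dnm3os, on the opposite strand within its span, shares no annotated exon base with it. Dnm3os had a mean of 128.7 counts in iGABA, 3.7 in GAD67 and 8943.7 in MEF, and its part in the Dnm3 level was not tested. Dnm1, the dynamin of synaptic endocytosis, ran the other way, with 175, 181 and 181 CPM in iGABA, 75.8, 85.8 and 53.1 CPM in GAD67 and 108, 107 and 100 CPM in MEF. It was 2.50-fold above GAD67 (edgeR adjusted p = 4.96e-07) and 1.71-fold above MEF (adjusted p = 7.2e-05), and in GAD67 it was lower than in MEF (log2 -0.55 ± 0.13 SE, adjusted p = 0.00118). Synj1, the lipid phosphatase that uncoats vesicles, averaged 102 ± 5.39 CPM in iGABA, 132 ± 6.53 CPM in GAD67 and 31.8 ± 2.56 CPM in MEF.

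Within gene families, the share of each paralog per exon length shifted between the groups. Such shares do not depend on TMM scaling. In a design of 3 libraries against 3, the exact permutation test cannot give a two-sided p below 0.1, which was the value for every share difference named here unless stated. Of the 6 synaptotagmins among the members, Syt7 made up 37.7% ± 0.551 of the RPKM in iGABA, 6.24% ± 0.656 in GAD67 and 2.58% ± 0.597 in MEF (SD, n = 3 each). Syt5 made up 1.53% ± 0.238 in iGABA, 31.6% ± 3.75 in GAD67 and 1.8% ± 0.732 in MEF, with an exact permutation p of 0.7 between iGABA and MEF. Syt11 had the largest share of these 6 in all 3 groups, at 47.0% ± 0.878 in iGABA, 39.7% ± 3.36 in GAD67 and 90.5% ± 0.226 in MEF. Counted over 13 listed synaptotagmins, members or not, and given without a test, Syt7 made up 25.5% ± 0.625 in iGABA, 4.54% ± 0.537 in GAD67 and 1.2% ± 0.284 in MEF. Over those 13, Syt5 made up 1.03% ± 0.152 in iGABA, 23.0% ± 3.03 in GAD67 and 0.833% ± 0.336 in MEF. The non-member Syt6 took 28.1% ± 1.1 in iGABA, 25.3% ± 1.53 in GAD67 and 2.57% ± 0.188 in MEF, and Syt13 took 47.1% ± 0.371 in MEF, more than the 42.0% ± 0.253 of Syt11 there.

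**Figure D3:**
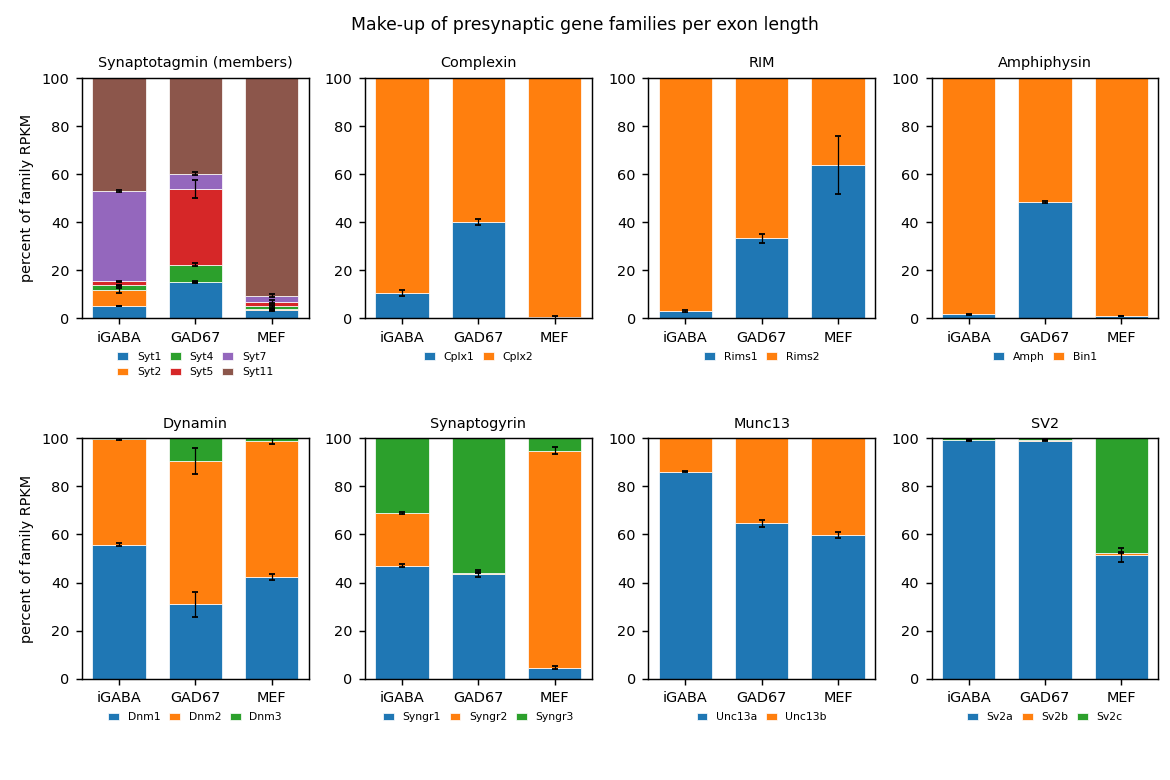
Share of each paralog in its family's RPKM, in percent, for 8 families, as stacked bars of the group means with iGABA left of GAD67 and MEF and error bars of 1 SD (n = 3 each). Syt7 takes 37.7% of the level of the 6 member synaptotagmins in iGABA against 6.24% in GAD67, and Bin1 takes 98.4% of the amphiphysin level in iGABA against 51.7% in GAD67.

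Several broadly expressed forms held a larger share of their family in iGABA than in GAD67. Bin1, the ubiquitous amphiphysin, made up 98.4% ± 0.113 of its pair in iGABA, 51.7% ± 0.491 in GAD67 and 99.1% ± 0.182 in MEF, and Amph the rest. Syngr2, the non-neuronal synaptogyrin, made up 21.9% ± 0.474 in iGABA, 0.545% ± 0.117 in GAD67 and 90.3% ± 1.44 in MEF. Rab3d, a form of exocrine and other secretory cells, made up 15.9% ± 0.208 of the Rab3 genes in iGABA, 3.98% ± 0.203 in GAD67 and 63.7% ± 1.9 in MEF. Snap47, a broadly expressed relative of Snap25, held a smaller share of its family in iGABA, with 47.3% ± 0.384 in iGABA, 57.9% ± 1.74 in GAD67 and 41.2% ± 1.13 in MEF. Ubiquitous Dnm2 also did, and made up 44.0% ± 0.638 in iGABA, 59.7% ± 5.24 in GAD67 and 56.7% ± 1.23 in MEF, with an exact permutation p of 0.6 between GAD67 and MEF.

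The level of other genes of the same pathways was read from 2 further lists. Of 22 broadly expressed relatives (for example Snap23, Vamp3 and Napa), 7 rose (31.8%) and 9 fell (40.9%) in iGABA over MEF (median log2 fold change -0.13), where 42.1% and 39.7% of all genes did. Against GAD67, 15 were higher in iGABA (68.2%) and 5 lower (22.7%), where 41.3% and 39.3% of all genes were, with a median of 0.53. Syngr2 averaged 41.7 ± 1.12 CPM in iGABA, 0.328 ± 0.0734 CPM in GAD67 and 44.5 ± 3.88 CPM in MEF, and its difference between iGABA and MEF did not pass (edgeR adjusted p = 0.251). Vamp8, a SNARE of endosomes and secretory granules, had 26.6, 28.5 and 26.5 CPM in iGABA, 0.281, 0.239 and 0.282 CPM in GAD67 and 28.6, 29.2 and 31.6 CPM in MEF. Rab27a, a GTPase of lysosome-related and secretory organelles, had 34.8, 36.4 and 32.7 CPM in iGABA, 0.511, 0.451 and 0.452 CPM in GAD67 and 6.48, 7.63 and 7.19 CPM in MEF, so it rose in iGABA by 2.29 on the log2 scale over MEF and by 6.19 over GAD67. Synj2, Picalm and Sypl fell in iGABA against MEF, by log2 changes of -3.34, -1.83 and -1.62.

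Of 42 other presynaptic genes, 40 were tested, with 31 higher (77.5%) and 7 lower (17.5%) in iGABA than in MEF (median log2 fold change 2.09), against the same 42.1% and 39.7% of all genes. In iGABA over GAD67, 14 were higher (35.0%) and 18 lower (45.0%), where 41.3% and 39.3% of all genes were, with a median of -0.33. By at least 2-fold, 9 of these 40 were higher and 15 of the 40 lower, against 26.6% and 20.0% of all genes. Rph3a, a Rab3 effector, had 158, 149 and 163 CPM in iGABA, 165, 181 and 131 CPM in GAD67 and 0.256, 0.165 and 0.211 CPM in MEF, a rise of 9.52 on the log2 scale over MEF (edgeR adjusted p = 9.26e-14). Rimbp2, which binds RIM and calcium channels, had no count in MEF, and iGABA (2.89, 2.94 and 3.35 CPM) was at least 91.9-fold higher, taken against 3 counts over the MEF group. Cplx3, a complexin of ribbon synapses, likewise had no MEF count, with 1.71, 1.67 and 1.25 CPM in iGABA and 2 counts in all in GAD67. Synpr, a synaptophysin relative, had 0.569, 0.526 and 0.313 CPM in iGABA, 27.4, 29.6 and 27.4 CPM in GAD67 and 0.11, 0.0329 and 0.211 CPM in MEF. Ppfia2, an active zone liprin, and Sh3gl2, the endophilin of synaptic vesicle endocytosis, were 4.69 and 4.48 lower on the log2 scale in iGABA than in GAD67. Sncg, encoding gamma-synuclein, had 2 counts in iGABA, 3 in GAD67 and 17.1, 19.0 and 19.3 CPM in MEF.

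The members that span the longest stretches of the genome were all lower in iGABA than in GAD67. This relation was noticed after the values were seen and is given as a description. Of the 10 members that span over 200 kb, all 10 were lower in iGABA than in GAD67, with a median log2 difference of -2.39, and they were Rims1, Rims2, Erc2, Syt1, Dnm3, Syn3, Pclo, Rab3c, Unc13b and Amph. Of all 894 tested genes over 200 kb, 61.1% were lower and 27.7% higher, with a median of -0.97. Of the 19 members under 50 kb, 11 were higher and 5 lower, with a median of 0.32, against 43.5% higher and 35.5% lower and a median of 0.12 among 13713 genes of that span. Across the 39 members, Pearson's r between the log2 difference and log2 span was -0.47 and Spearman's rho -0.54, and across all 18085 genes they were -0.09 and -0.13. The points share their libraries, and genes are not independent replicates. With exon length in place of span, r was -0.08 over the members. Syt5, at 6.8 kb, was a short gene with a low iGABA level. Cplx2 was counted as 12.6 kb from the deposited coordinates, while its nearest RefSeq start lies 68793 bases from the deposited start, so its span is uncertain.

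**Figure D4:**
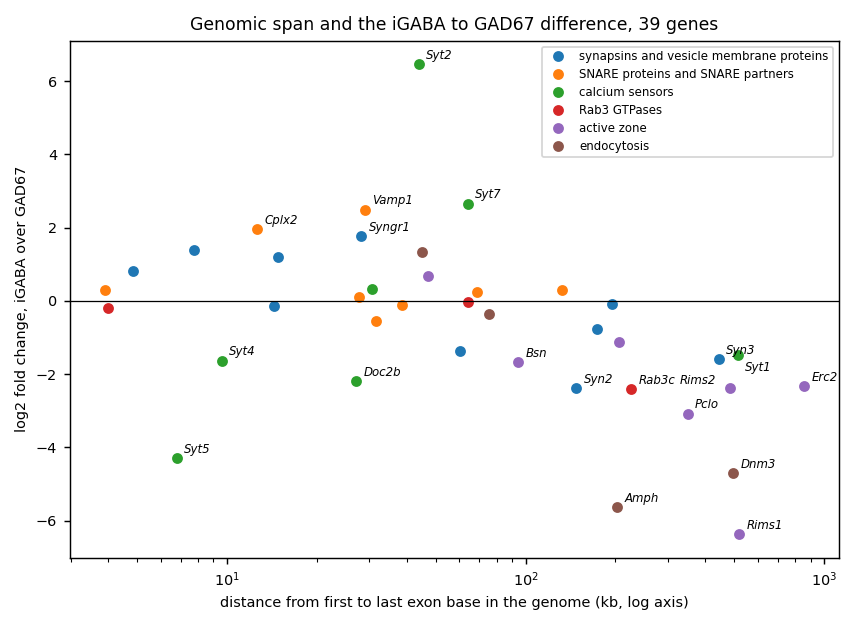
Log2 fold change of each member in iGABA over GAD67 against its genomic span in kb (log axis), 1 point a gene, coloured by role. All 10 members over 200 kb lie below 0, and the members under 50 kb lie on both sides.

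The relative spread of the members between replicate libraries was smallest in iGABA and largest in MEF, where most members had their lowest levels. Over members at 1 CPM or more, the median coefficient of variation was 4.84% in iGABA (35 members), 9.46% in GAD67 (37) and 13.6% in MEF (29). Within MEF it ran from 1.62% for Syt11, at a mean of 62.9 CPM, to 36.0% for Rims1, at 1.45 CPM. The part of low counts in this spread was not tested. GAD67 replicate 9 was the lowest of its group for 27 of the 39 members, and replicate 8 the highest for 25. The same shares over all genes are not given here, so these counts show no trait particular to the members. In GAD67 replicates 7, 8 and 9, the summed CPM of 6 glutamatergic cortical neuron markers was 47.8, 39.0 and 64.8. That of 4 endothelial markers was 20.0, 10.7 and 36.6, so replicate 9 was highest in both. Replicate 9 was also highest for the 6 neuronal markers (7855, 7552 and 8021 CPM) and the 6 GABAergic interneuron markers (3960, 3835 and 3981 CPM). Their part in the member levels was not tested. Without replicate 9, 14 members were higher and 21 lower in iGABA than in GAD67.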

How the data were processed

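RNA was extracted with a column kit and made into strand-marked (dUTP) libraries, per the labels' protocols. The submitters' processing notes list DESeq 1.10.1, featureCounts, BWA 0.7.2 and the build mm10, without role or order. Neither the annotation release nor the strand setting of the counting is given in the sources used here. The values deposited by the authors are raw counts of reads per gene and library, with Ensembl identifiers, exon coordinates and exon lengths. Of the 37224 identifiers, 35449 (95.2%) were matched to a symbol in a GENCODE gene table.

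From these counts, genes with too few reads were removed with filterByExpr (minimum count 10, minimum total 15), which left 18085. All 9 libraries were fitted together in edgeR 4.0.16 (R 4.3.3) with TMM scaling and the quasi-likelihood test, and Benjamini-Hochberg adjusted p-values run over all tested genes. The scripts were tested on simulated data. CPM are TMM-scaled counts, and RPKM are CPM per kilobase of exon. Fold changes are those of the fit. Family shares were compared by two-sided exact permutation. Upstream sequences came from RefSeq (GRCm38.p6) and were searched on both strands. The first 25 bases after the start were found in the sense of an annotated transcript for 25 of the 30 members. PCR reads carried no molecular identifiers, so counting intervals cover counting error only.

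The members and lists were chosen with earlier results of these data known. All members are named; of each further list, the 4 genes with the greatest absolute change among those that passed in iGABA over MEF and in iGABA over GAD67 are named, besides relatives in a member's family. Stx4 was found under its older symbol, and Vamp7 was not analysed here; Cplx4 and Syt10 did not pass the filter. Alternatives were DESeq2 1.42.0, library size or upper quartile scaling, no filter or a filter of 1 CPM in 3 libraries, only the groups compared, each library left out, and shares from CPM. Leaving out members that share exon bases with an opposite-strand gene, a sum without Cplx2 and shares over all listed synaptotagmins were added after the data were seen.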

Additional observations from a re-analysis of the deposited data

How the results depend on the processing

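No paired analysis was possible because the groups share no replicate numbers. Of 1750 alternative values for the 117 results of single members, 1740 kept their direction and side of the threshold. Of the rest, the 1 that reversed was Rab3a in iGABA over GAD67, which was 0.01 on the log2 scale (edgeR adjusted p = 0.948) with library size alone, against -0.19 with TMM; the cause was not tested. Upper quartile scaling gave -0.13 for it (edgeR adjusted p = 0.0925). The other changed calls, of Sv2a, Sv2c and Stx1a in iGABA over GAD67, stand beside those results. Without 1 library in turn, between 32 and 35 members passed in iGABA over GAD67 and 38 in iGABA over MEF throughout. With library size alone, all genes had a median of 0.46 on the log2 scale in iGABA over MEF, with 9941 higher and 5283 lower, against 0.05, with 7618 higher and 7188 lower, under TMM. In iGABA over GAD67 it moved the median to 0.22, against 0.02, and in GAD67 over MEF to 0.22, against 0.00. Without the 9 members that share exon bases with an opposite-strand gene, 27 of 30 rose and 2 fell in iGABA over MEF, and 12 were higher and 13 lower in iGABA than in GAD67. Shares from CPM without the length correction moved 116 of 150, since paralogs differ in exon length. Without MEF replicate 3, Cplx1 had no MEF count. At this depth, differences of Sv2b and other members under about 1 CPM are poorly resolved.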
